A study of Mus musculus with 2 samples.

Results

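The genes through which an adipocyte receives insulin and uses glucose were examined for TET2 peaks, from the insulin receptor to the last enzymes of glycolysis. The 43 genes were taken by name, with earlier results of these data known but without a threshold on any measured value, out of 21951 protein-coding genes of the GENCODE M21 annotation of GRCm38, and all 43 names were found there. They were divided by step into 6 receptor and adaptor genes, 17 genes of the PI3K-AKT-mTOR branch and its direct targets, 5 glucose transport genes and 15 genes of glycolysis and glucose storage. Of the 43, 18 (41.9%) had the midpoint of a TET2 peak within 1 kb of one of their transcription start sites (TSSs). Among all protein-coding genes that share was 24.6%. A peak 1 to 3 kb away was found for 1 member (2.33%, against 5.05%). In the gene body, more than 3 kb from every TSS of the gene, 9 had a peak (20.9%, against 13.0%). Because several genes had peaks in more than 1 place, 23 members (53.5%) carried any of these 34 peaks and 20 carried none. Of all protein-coding genes, 36.4% carried a peak in any of the 3 places.

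Insulin binds a receptor tyrosine kinase that phosphorylates adaptor proteins of the IRS family. These recruit phosphatidylinositol 3-kinase, whose lipid product activates the kinases PDK1 and AKT. In fat and muscle AKT phosphorylates the RAB regulators TBC1D4 and TBC1D1, which lets vesicles with the glucose transporter GLUT4 reach the cell surface, and it activates the growth kinase mTOR through the TSC complex. TET2 oxidizes 5-methylcytosine in DNA and has no DNA-binding domain of its own. Its position on chromatin was read out by immunoprecipitation followed by sequencing (ChIP-seq).

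One TET2 ChIP library was set against 1 library of input chromatin, not enriched with any antibody. Both came from stem cells isolated from mouse inguinal white adipose tissue, cultured to passage 3 and differentiated into adipocytes with IBMX, dexamethasone and insulin, followed by insulin alone, so insulin was in the medium of both libraries. The labels give no genotype, age or number of animals, there is no second condition, and a peak list holds no expression values against which the cell type could be checked. The labels place the coordinates on mm10 (GRCm38) whereas the methods name GRCm39, and all positions here are on GRCm38. The authors deposited 14103 peaks, 375 to 3392 bp long, each with the −log10 p that their peak caller computed against the input, from 3.07 to 335 with a median of 6.21. The methods state a p-value setting for peak calling that corresponds to a −log10 p of 5, yet 2182 of the deposited peaks (15.5%) lay below 5, so the values were taken as deposited and the difference is unresolved. The methods give a total volume of sequence, without saying for which library, so the reads behind each peak are unknown. Without replicates no error between libraries can be given, and the exact 95% binomial intervals given for shares cover counting error only.

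The sequences under the strongest promoter peak of each step are shown so that the base composition described further on can be read directly. The chosen peak of each step was that with the largest −log10 p among its peaks within 1 kb of a TSS, and those at Hk2 and Ldha were added after their values had been seen, to show promoters that hold several motifs. Each stretch was read from the RefSeq GRCm38.p6 genome 5′ to 3′ on the strand of the gene, lies inside the peak and outside every annotated exon, and has in capitals any match on either strand to GGGCGG (the SP1 box), to CCAAT or to CACGTG (the E-box). The Igf1r stretch is chr7:68194409-68194608 on the plus strand, deep inside the gene, the Pik3ca stretch is chr3:32396868-32397067 on the plus strand, and the Tbc1d1 stretch is chr5:64159264-64159450 on the plus strand. The Pfkp stretch is chr13:6649009-6649208 on the minus strand, the Hk2 stretch is chr6:82774515-82774714 on the minus strand, and the Ldha stretch is chr7:46845631-46845830 on the plus strand. Pde3b tied with Pik3ca, and the list of genes to show also held Insr, but both of those peaks had no stretch of sufficient length outside exons.
Igf1r: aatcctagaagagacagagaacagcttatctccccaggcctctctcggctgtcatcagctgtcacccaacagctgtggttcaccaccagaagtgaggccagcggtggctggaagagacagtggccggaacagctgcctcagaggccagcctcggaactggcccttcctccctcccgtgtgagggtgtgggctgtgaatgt
Pik3ca: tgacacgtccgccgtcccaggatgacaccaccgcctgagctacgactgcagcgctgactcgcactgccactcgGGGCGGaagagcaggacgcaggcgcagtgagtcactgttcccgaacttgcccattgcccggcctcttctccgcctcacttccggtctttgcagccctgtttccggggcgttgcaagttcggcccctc
Tbc1d1: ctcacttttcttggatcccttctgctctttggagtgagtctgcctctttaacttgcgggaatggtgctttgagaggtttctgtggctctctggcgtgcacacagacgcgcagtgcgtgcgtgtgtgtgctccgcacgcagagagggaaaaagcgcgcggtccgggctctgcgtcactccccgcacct
Pfkp: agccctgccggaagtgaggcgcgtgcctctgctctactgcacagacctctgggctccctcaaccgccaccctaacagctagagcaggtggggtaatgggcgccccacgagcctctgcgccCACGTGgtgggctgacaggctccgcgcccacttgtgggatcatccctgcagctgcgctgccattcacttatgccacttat
Hk2: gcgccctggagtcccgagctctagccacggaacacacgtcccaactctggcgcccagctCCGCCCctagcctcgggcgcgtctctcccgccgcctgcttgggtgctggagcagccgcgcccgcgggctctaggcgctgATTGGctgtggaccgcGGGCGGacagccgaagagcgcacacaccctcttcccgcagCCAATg
Ldha: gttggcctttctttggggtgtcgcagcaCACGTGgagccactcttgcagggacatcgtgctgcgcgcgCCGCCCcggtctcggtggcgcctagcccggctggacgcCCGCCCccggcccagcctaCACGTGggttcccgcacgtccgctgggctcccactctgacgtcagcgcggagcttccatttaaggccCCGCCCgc

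The stretch inside Igf1r had 5 CpG dinucleotides in 200 bases and none of the motifs, while that of Ldha had 23 CpGs in 200 bases with 3 SP1 boxes and 2 E-boxes, and that of Hk2 had 22 CpGs with 2 SP1 boxes and 2 CCAAT boxes. The Pik3ca stretch held 18 CpGs and 1 SP1 box, the Tbc1d1 stretch 14 CpGs in 187 bases and the Pfkp stretch 11 CpGs and 1 E-box. CpG content thus differed several-fold between stretches of equal length, and no motif match overlapped another in them.

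A peak within 1 kb of a TSS was found for 41.9% of the members (18 of 43, exact 95% binomial interval 27.0% to 57.9%), against 24.6% of all protein-coding genes. The direction turned with the threshold on the peaks, since with a −log10 p of at least 7 the share was 9.30% of members (4 of 43) against 12.0% of protein-coding genes. That share rests on 4 genes and no interval was computed for it, so the turn cannot be told apart from counting error. The share was 50% for receptors and adaptors (3 of 6, 11.8% to 88.2%), 35.3% for the PI3K-AKT-mTOR branch (6 of 17, 14.2% to 61.7%), 80.0% for glucose transport (4 of 5, 28.4% to 99.5%) and 33.3% for glycolysis and storage (5 of 15, 11.8% to 61.6%). The intervals of the 4 steps overlap one another. The members also had more CpG-rich promoters than other genes. A promoter was counted as CpG-rich where the 500 bp on each side of at least 1 TSS of the gene had a GC content of at least 50% and an observed to expected CpG ratio of at least 0.6, which held for 36 of 43 members (83.7%) and for 51.2% of all protein-coding genes. Among genes with such a promoter, 15 of 36 members (41.7%, 25.5% to 59.2%) and 39.9% of 11236 protein-coding genes had a peak within 1 kb. Of the 7 members without one, 3 had a peak (42.9%, 9.90% to 81.6%), against 8.46% of 10715 genes. These 3 were Pfkp, Pfkm, whose peak also lies at the start of Senp1, and Trip10, which counted only through a retained-intron transcript. The members had a median of 6 distinct TSSs per gene against 3 for all protein-coding genes, which widens the window in which a peak can count. Among genes with 5 or more TSSs, 14 of 30 members (46.7%, 28.3% to 65.7%) and 35.1% of 7831 genes had a peak within 1 kb. With fewer TSSs these were 4 of 13 (30.8%, 9.09% to 61.4%) and 18.7%. Among genes with a CpG-rich promoter the shares were 48.0% against 41.5% with 5 or more TSSs and 27.3% against 38.2% with fewer. The part of promoter composition and of TSS number in the members' share was not tested.

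**Figure D1:**
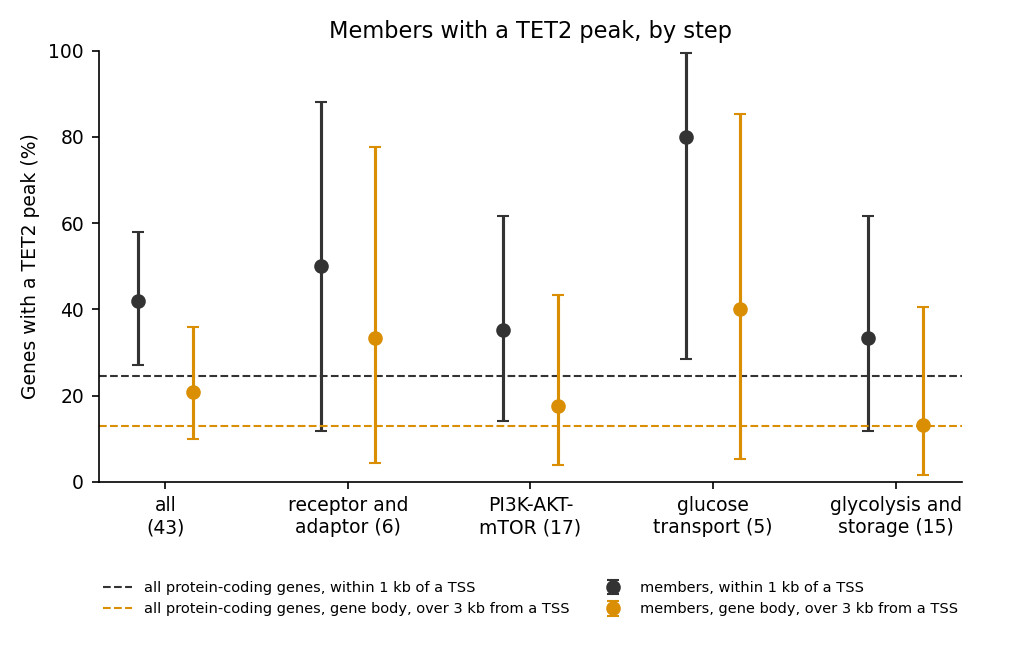
Share of members with a TET2 peak (%, points with exact 95% binomial intervals) for all 43 genes and for each step, within 1 kb of a TSS (dark) and in the gene body over 3 kb from a TSS (orange); dashed lines give the shares over all protein-coding genes, 24.6% and 13.0%. The 4 steps have wide, overlapping intervals, and among them only that of glucose transport (28.4% to 99.5%) lies wholly above the dark line, as does that of all 43 genes (27.0% to 57.9%). With a −log10 p of at least 5, glucose transport kept 2 of 5 genes (40.0%), against 22.1% of protein-coding genes. Among genes with a CpG-rich promoter, the shares within 1 kb were 41.7% of members and 39.9% of protein-coding genes.

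The gene of the insulin receptor had a peak at its start. At Insr (ENSMUSG00000005534) the peak chr8:3279158-3279578 had a −log10 p of 5.13, and its midpoint lay 183 bp downstream of the nearest TSS, in the 5′ UTR of exon 1. Igf1r (ENSMUSG00000005533), the gene of the related IGF-1 receptor, had 3 peaks. The peak at its main promoter, chr7:67952293-67953018, was 726 bp long, the longest promoter peak among the members, with its midpoint 172 bp upstream of the TSS and a −log10 p of 6.16. The peak with the larger value of 7.16, chr7:68194306-68194712, lay in intron 11, 157 bp upstream of the start of a retained-intron transcript, and a further peak of 5.13 lay in intron 2, over 3 kb from any TSS. Grb2, the adaptor that links receptors to the RAS pathway, had a peak of 6.01 (chr11:115708012-115708386) in its intron 1, 377 bp downstream of a TSS.

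The adaptors that carry the metabolic signal from the receptor had no promoter peak. Irs1, the main IRS protein of adipocytes, had a CpG-rich promoter (CpG ratio 0.704, GC content 69.6%) and no peak, and the nearest peak in the list was 295 kb upstream. Of all protein-coding genes with a CpG-rich promoter, 39.9% had a peak within 1 kb. Irs2 had 1 peak of 5.35, chr8:11004639-11005013, in the coding part of exon 1 and 3632 bp from its only TSS, just outside the 3 kb window. Shc1, the adaptor of the mitogenic branch, had none, with the nearest peak 8.77 kb downstream of a TSS. Among the receptors and adaptors, 2 of 6 thus had no peak in any of the 3 places. The other 4 (66.7%, 22.3% to 95.7%) had one, against 36.4% of all protein-coding genes.

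In the PI3K-AKT-mTOR branch, promoter peaks lay at Pik3ca, Pik3r1, Pik3r2, Akt2, Rptor and Pde3b. Pik3ca, which encodes the catalytic subunit p110α, had a peak of 7.40 (chr3:32396760-32397176) with its midpoint 703 bp upstream of the TSS, the most distant of all promoter peaks of the members. The next peak beyond this, at Tsc2, was 2778 bp from a TSS, so no member lay close to the limit of 1 kb. Pik3r1, which encodes the regulatory subunit p85α, had a peak of 6.62 (chr13:101767293-101767921) in intron 1, 606 bp downstream of a TSS. Pik3r2, which encodes p85β, had a peak of 6.28 (chr8:70774461-70774984) that lay 35 bp upstream of an internal TSS and 1991 bp downstream of the start of the principal transcript, in coding exon 2. With RefSeq TSSs in place of those of GENCODE, the peak at Pik3r2 moved out of the 1 kb window. Pik3cb, the gene of p110β, had none.

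The kinases and their complexes were unevenly covered. Akt2, the AKT isoform most closely tied to glucose uptake in fat, had a peak of 5.13 (chr7:27596919-27597323), which lay 291 bp downstream of an alternative TSS and 5569 bp downstream of the start of the principal transcript, with a CpG ratio of 0.244. Akt1 had no peak, and the nearest was 18.6 kb away. Rptor, the gene of the raptor subunit that defines mTOR complex 1, had a peak of 5.13 at its start, in the 5′ UTR of exon 1, whereas Rictor, the gene of the corresponding subunit of mTOR complex 2, had none and its nearest peak was 54.1 kb away. Rptor also had body peaks of 6.16 in intron 10 and 5.89 in coding exon 22. Pde3b, the phosphodiesterase through which insulin restrains lipolysis, had a peak of 7.40 (chr7:114415679-114416119) in its coding exon 1, 618 bp downstream of the TSS. That midpoint was also 738 bp from the TSS of the noncoding gene 4933406I18Rik.

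Mtor and Pdpk1 had peaks in their bodies alone. Mtor had a peak of 7.16 in intron 28, 441 bp from the TSS of Angptl7, a gene on the opposite strand inside that intron, and a peak of 6.21 in intron 36. Pdpk1, the gene of PDK1, had a peak of 4.12 in intron 2, with a single CpG and 48.5% repeat-masked bases. The peak assigned to Tsc2, with a value of 6.49, had its midpoint beyond the 3′ end of the gene and inside Pkd1, and it counted for Tsc2 only through a retained-intron transcript. It was not counted with protein-coding or RefSeq TSSs. No peak was found at Tsc1, Rheb, Rps6kb1, Gsk3a or Gsk3b, which together with Pik3cb, Akt1 and Rictor made 8 of the 17 genes. The other 9 (52.9%, 27.8% to 77.0%) had a peak in any of the 3 places, against 36.4% of all protein-coding genes. The promoters of all 8 were CpG-rich, with ratios from 0.739 to 1.07. Of all protein-coding genes with a CpG-rich promoter, 39.9% had a peak within 1 kb.

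**Figure D2:**
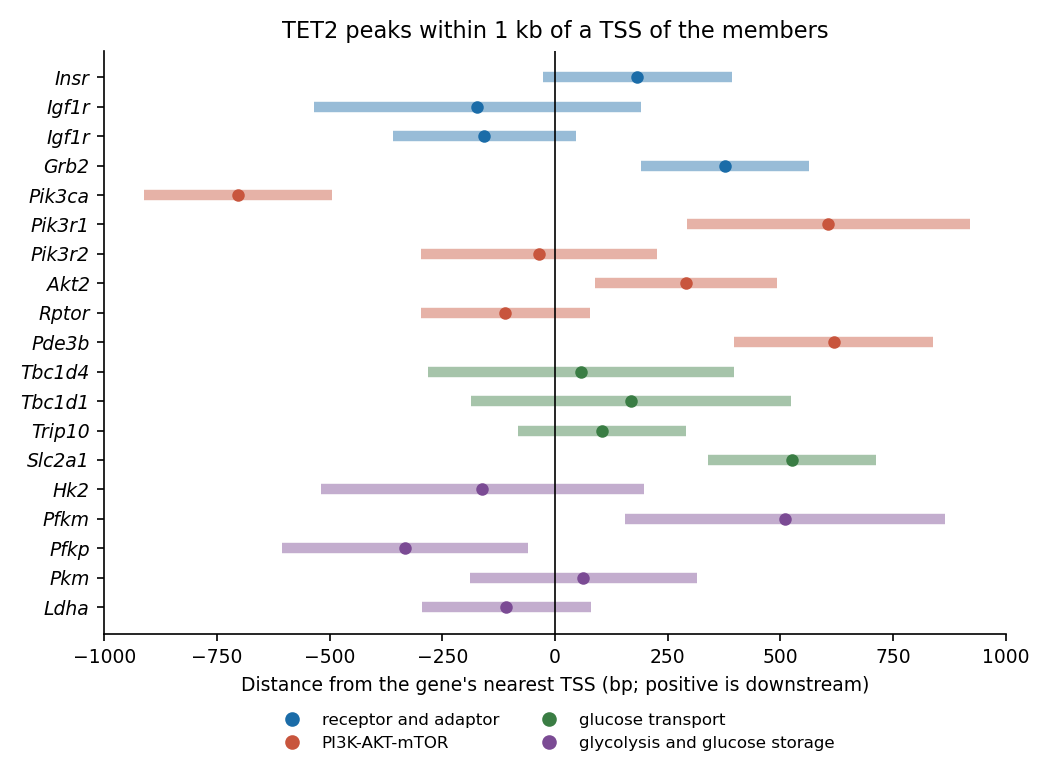
Extent (bars) and midpoint (points) of the 19 TET2 peaks within 1 kb of a TSS of a member, in bp from the nearest TSS of that gene, positive downstream, coloured by step. Midpoints run from 703 bp upstream at Pik3ca to 618 bp downstream at Pde3b.

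In glucose transport the regulators had promoter peaks and the insulin-responsive transporter had none. Slc2a4, the gene of GLUT4, had no peak in any of the 3 places, and the nearest peak was 18.3 kb upstream of its TSSs. Its promoter fell slightly short of the CpG criterion, with a ratio of 0.596. Of all protein-coding genes without a CpG-rich promoter, 8.46% had a peak within 1 kb, so most such genes had none. Slc2a1, the gene of the ubiquitous transporter GLUT1, had a peak of 5.13 in intron 1 (chr4:119109253-119109627), 526 bp downstream of a TSS and 729 bp downstream of the start of the principal transcript.

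The RAB regulators downstream of AKT each had several peaks. Tbc1d4, also known as AS160, had a peak of 681 bp across its TSS (chr14:101608635-101609315), with a midpoint 58 bp downstream and a low −log10 p of 4.08, and peaks of 5.13 and 5.13 at 37.3% and 55.7% of the gene length, both in intron 1. Tbc1d1 had a peak of 712 bp (chr5:64159264-64159975) with a value of 6.12, 168 bp downstream of a TSS and at −201 bp from the principal TSS. A further 3 peaks lay in its coding exons 4, 7 and 21, with values of 4.12, 4.12 and 6.63. Trip10, which encodes the CDC42 effector CIP4 that has been linked to GLUT4 trafficking, had a peak of 4.82 in intron 9, 104 bp from the start of a retained-intron transcript and 7452 bp from the principal start. It did not count with RefSeq or protein-coding TSSs, which left 3 of 5 transport genes (60.0%). The shares of all protein-coding genes were then 22.3% and 23.1%. With peaks of −log10 p of at least 5 only Tbc1d1 and Slc2a1 kept a promoter peak, 2 of 5 (40.0%), against 22.1% of protein-coding genes.

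In glycolysis and storage, 5 of 15 genes had a promoter peak, at Hk2, Pfkm, Pfkp, Pkm and Ldha. Hexokinases phosphorylate glucose on entry. Hk2, the insulin-regulated hexokinase of muscle and fat, had a peak of 718 bp over its promoter (chr6:82774257-82774974), 161 bp upstream of the TSS, with a value of 5.13. Hk1 had no promoter peak, but a peak of 11.1 (chr10:62269527-62270091) in the 3′ UTR of its last exon, 22, with a CpG ratio of 0.615. This was the largest −log10 p of all 34 member peaks, and it ranked 681 among the 14103 peaks.

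Phosphofructokinase makes the committing step of glycolysis and has 3 subunit genes. Pfkp had a peak of 7.53 (chr13:6648836-6649382), the largest value among the promoter peaks of the members, 332 bp upstream of its TSS. Pfkm had a peak of 5.45, 511 bp downstream of its TSS. The midpoint of that peak was 96 bp from the TSS of Senp1, which lies head to head with Pfkm. The peak thus lay within 1 kb of a TSS of both genes and cannot be assigned to either. Pfkl, the liver-type subunit gene, had none, with the nearest peak 10.5 kb away.

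Of the later enzymes, Pkm and Ldha had promoter peaks. Pkm, the pyruvate kinase gene, had a peak 63 bp downstream of its TSS with a −log10 p of 3.56, the lowest of all member peaks and ranked 13929 in the list, and a peak of 5.01 in coding exon 9 whose sequence had 7 matches in the genome. Ldha, the lactate dehydrogenase A gene, had a peak of 5.89, 108 bp upstream of the principal TSS (chr7:46845544-46845918). No peak was found at Gpi1, Aldoa, Tpi1, Gapdh, Pgam1 or Eno1, which encode other enzymes of glycolysis. The nearest peaks were 17 kb away at Gapdh to 71.7 kb away at Aldoa. Both gene identifiers that carry the name Aldoa had none. Gys1, the muscle glycogen synthase gene, also had none, with the nearest peak 4.84 kb upstream. Neither had Pdk4, the kinase that shuts pyruvate dehydrogenase off in fasting, with the nearest peak 29.5 kb upstream. With Pfkl these made 9 of the 15 genes of glycolysis and storage without a peak in any of the 3 places. The other 6 (40.0%, 16.3% to 67.7%) had one, against 36.4% of all protein-coding genes.

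Over all steps, 15 of the 19 promoter peaks lay within 1 kb of the start of the principal transcript and 4 lay only at another annotated start, at Igf1r, Pik3r2, Akt2 and Trip10. The 15 had CpG ratios of 0.519 to 1.08 with a median of 0.784, and the 4 had ratios of 0.244 to 0.589 with a median of 0.378. Of the 19 midpoints, 11 (57.9%) coincided with or followed the TSS, with a median offset of 63 bp downstream, against 71.3% and 100 bp for the 5170 peaks within 1 kb of a TSS of any protein-coding gene. The interval of the members' median, −157 to 377 bp, covers 100 bp, and the median was 168 bp with protein-coding transcripts and 11.5 bp with a 500 bp window.

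The members' promoter peaks were of low to middling strength. The lowest −log10 p was 3.56 and the highest 7.53, and the median was 5.89 (order-statistic 95% interval of the median 5.13 to 6.62), against a median of 6.83 for the 5170 promoter peaks of protein-coding genes, of which 25% were below 5.68 and 25% above 8.37. Of those 5170 peaks, 36.2% exceeded the largest member value. By step the medians were 6.08 for 4 peaks of receptors and adaptors, 6.45 for 6 peaks of the PI3K-AKT-mTOR branch, 4.97 for 4 peaks of glucose transport and 5.45 for 5 peaks of glycolysis. The values repeat. The most frequent −log10 p of the list, 5.13, was shared by 1497 peaks (10.6%) and by 8 of the 34 member peaks, 5 of them promoter peaks, so Insr, Akt2, Rptor, Slc2a1 and Hk2 cannot be ranked against one another. Values under 5 were held by 3 of the 19 promoter peaks (Tbc1d4, Trip10 and Pkm), or 15.8%, against 10.9% of all promoter peaks.

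**Figure D3:**
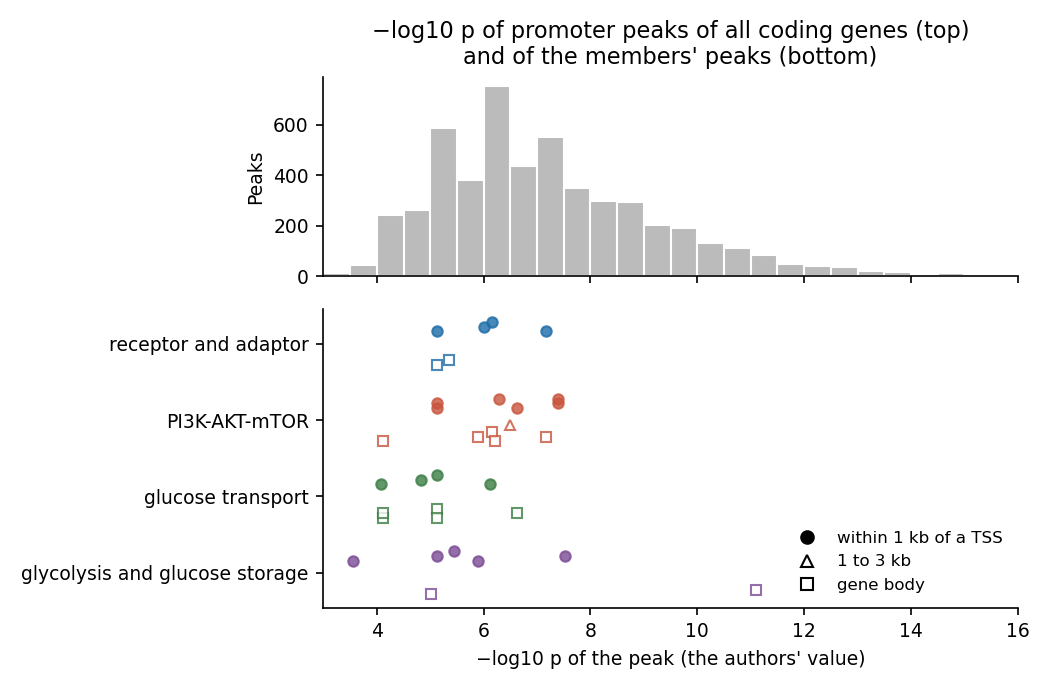
The −log10 p of the 5170 promoter peaks of protein-coding genes (top, bins of 0.5, with 33 peaks above 16 not drawn) and of the 34 member peaks by step (bottom; circles within 1 kb of a TSS, triangle 1 to 3 kb, squares gene body). The members' promoter peaks end at 7.53, and the peak at 11.1 is that in the last exon of Hk1.

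Peaks in the gene body were found for 9 of 43 members (20.9%, 10.0% to 36.0%), against 13.0% of protein-coding genes. The members were longer, with a median length of 39.9 kb against 17.4 kb. Among genes of at least 50 kb, 7 of 17 members (41.2%, 18.4% to 67.1%) and 34.1% of 5007 genes had such a peak, and among shorter genes 2 of 26 (7.69%) and 6.75%. Of the 14 body peaks, 7 lay in introns, 6 in coding exons and 1 in a 3′ UTR of the principal transcripts. Their −log10 p had a median of 5.24 against 6.21 for the body peaks of all protein-coding genes. Of the 14, 10 (71.4%) were 375 bp long, the shortest length in the list, compared with 5 of 19 promoter peaks (26.3%) and 32.0% of all 14103 peaks. The body peaks of all protein-coding genes were also shorter (median 411 bp) than the promoter peaks of those genes (467 bp). Neither the share of the shortest length nor the split by exon and intron was counted for them. Of the members, Igf1r, Rptor, Tbc1d4, Tbc1d1 and Pkm had both promoter and body peaks, while Irs2, Pdpk1, Mtor and Hk1 had body peaks only. A peak 1 to 3 kb from a TSS was found for 1 member (2.33%, 0.0589% to 12.3%), against 5.05% of genes, and any of these peaks for 53.5% of members (37.7% to 68.8%), against 36.4%.

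**Figure D4:**
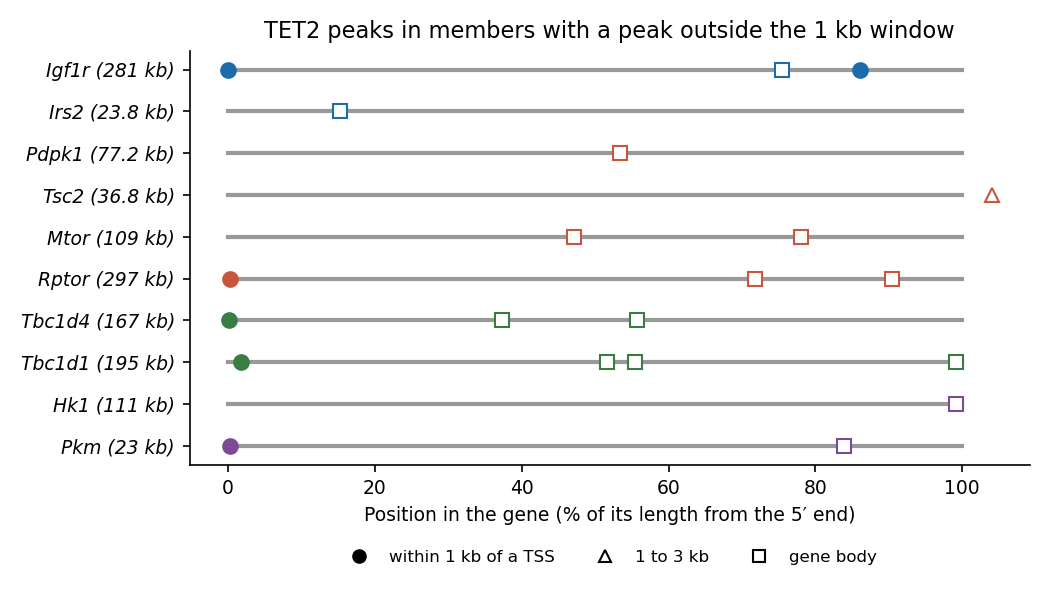
Position of TET2 peaks along the 10 members with a peak outside the 1 kb window, as a percentage of gene length from the 5′ end (filled circles within 1 kb of a TSS, triangle 1 to 3 kb, open squares gene body). The peaks at Hk1 and the last at Tbc1d1 lie at 99.1% of the gene, and the peak assigned to Tsc2 lies at 104%, beyond its end.

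Promoter composition overlapped between members with and without a promoter peak. The 18 with a peak had CpG ratios of 0.559 to 1.02 with a median of 0.804 and the 25 without had ratios of 0.504 to 1.07 with a median of 0.748. GC content was 48.9% to 74.4% with a median of 63.9%, and 52.6% to 78.0% with a median of 60.7%. The ranges overlap almost fully. CpG-rich promoters such as those of Irs2 (ratio 1.05), Rheb (1.06), Rictor (1.07) and Pgam1 (0.974) had no peak within 1 kb. Pfkp (0.559), Trip10 (0.566) and Pfkm (0.569) had one without meeting the criterion at any TSS of their own. The Pfkm peak itself, near the start of Senp1, had a CpG ratio of 0.832 and a GC content of 66.9%. The Trip10 peak lay in intron 9. Genes with a peak had a median length of 66.8 kb and those without a median of 23.8 kb.

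**Figure D5:**
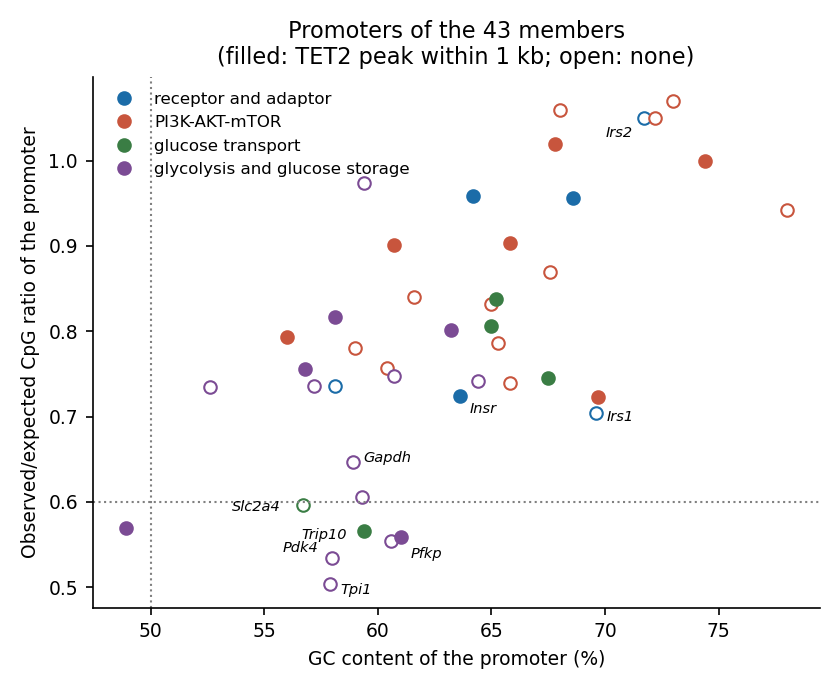
GC content (%) and observed to expected CpG ratio of the promoter of each of the 43 members, 500 bp on each side of its most CpG-rich TSS, coloured by step; filled points have a TET2 peak within 1 kb, open points have none. Filled and open points mix over the whole range; dotted lines mark the criteria of 50% and 0.6.

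Short motifs were counted on both strands within 100 bp of the midpoint of the 19 promoter peaks, as a description of sequence and not of binding. The SP1 box GGGCGG was found in 9 peaks (47.4%), against 47.0% of the 5170 promoter peaks and 41.8% of all promoters over the same length around the principal TSS. CCAAT was found in 4 (21.1%, at Tbc1d4, Tbc1d1, Hk2 and Pkm), against 12.5% of promoter peaks and 27.3% of promoters. The E-box CACGTG, the sequence read by MYC, USF and ChREBP-type factors, was found in 2 (10.5%, at Pfkp and Ldha), against 5.07% and 5.54%. The palindromic C/EBP sequence TTGCGCAA was found in none of the 19, but in only 5 of the 5170. The E-box and C/EBP letters are palindromes and were counted once. Of the 34 member peaks, 31 matched the genome in 1 place, with the exceptions at Pkm (exon 9), Mtor (intron 36, 3 matches) and Rptor (intron 10, 3 matches).

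A list of 100 other genes of the pathway was placed in the same way. A peak within 1 kb was found for 30 of 100 (30.0%, 21.2% to 40.0%), against 24.6% of all protein-coding genes, which the interval covers. A body peak was found for 26 (17.7% to 35.7%) against 13.0%, and any peak for 49 (38.9% to 59.2%) against 36.4%. The promoter interval overlaps that of the 43 members. Taking the strongest promoter peak of each gene, the −log10 p had a median of 7.06 in these 30 genes and 5.67 in the 18 members, and 12 of the 30 exceeded 7.53. Among the largest were those at Map2k2 (11.2), a kinase of the mitogenic branch, at Crkl (10.0), an adaptor, and at Hras (9.94), with Pcx, the pyruvate carboxylase gene, level with Hras at 9.94 and named for that reason. Map2k2 and Crkl had their midpoints 120 bp downstream and 1 bp upstream of a TSS.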

How the data were processed

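TET2 ChIP-seq peaks of 1 library against 1 input library were used. Per the submitters' processing notes and the methods, the authors removed poor reads with NGS QC Toolkit, used Bowtie for alignment and MACS2 2.1.0 for peak calling, and deposited intervals with a −log10 p value each. The methods name GRCm39 and the labels mm10 (GRCm38). GRCm38 was used, and no coordinate was converted. Peak midpoints were placed against the TSSs of all GENCODE M21 transcripts of each gene. Where a peak qualified at several TSSs, the nearest counted. Principal transcripts were those of APPRIS. Genome sequence came from RefSeq GRCm38.p6. Genome matches were counted with blastn 2.17.0 (at least 100 bp, 90% identity). Values were computed with Python 3.11.15, pandas 2.3.3, scipy 1.17.1 and pysam 0.24.0, and simulated peaks with known places served to test the scripts. No p-value was computed, since there is no replicate. The members and lists were chosen with earlier results of these data known. All 43 members and every peak found are reported, and other pathway genes only where their promoter peak was among the 5 largest of that list, some of which are not reported here. Read-level coverage and the input alone were not used here, and reads per library are not given in the sources used here. Alternatives were thresholds of 5 and 7 on −log10 p, other TSS sets and windows, and placing by any base of a peak.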

Additional observations from a re-analysis of the deposited data

How the results depend on the processing

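Of 66 values under alternatives, 53 stayed within 1.5 times the value reported (for medians, within its 95% interval) and 13 moved. No paired analysis was possible because a lone TET2 library was deposited, and no replicate could be left out. With −log10 p of at least 7, by construction fewer peaks, 4 members had a promoter peak (1 receptor or adaptor, 2 of the PI3K-AKT-mTOR branch, 0 of transport, 1 of glycolysis), and 0 had a peak at 1 to 3 kb, 2 a body peak and 6 any peak. As shares these were 9.30% against 12.0% of protein-coding genes for promoters, 0 against 2.23%, 4.65% against 5.51% and 14.0% against 18.4%. The members' shares thus lay below those of protein-coding genes in all places, the reverse of the result with all peaks for promoters, bodies and any peak. They rest on few genes and no interval was computed for them, so the reversal cannot be told apart from counting error. The cause was not tested. With −log10 p of at least 5, 2 of 5 transport genes (40.0%) had a promoter peak, against 22.1% of protein-coding genes. The count at 1 to 3 kb was 0 with protein-coding transcripts, against 3.83% of protein-coding genes. With RefSeq TSSs it was 2 (Pik3r2 and Pdpk1), or 4.65% against 3.37%. A 500 bp window left 3 of 17 genes of the PI3K-AKT-mTOR branch (17.6%), below the 21.6% of protein-coding genes. With the 1 kb window that branch had 35.3% against 24.6%, so its direction changed with the window. The most upstream TSS alone left 2 of 5 genes of transport (40.0%), against 20.1%. No intervals were computed for these alternative shares. An alternative added after seeing the data, the TSS of the principal transcript alone, gave 15 members (34.9%) against 20.8% of protein-coding genes. Peaks with a −log10 p near the lower end of the list limit any statement on single genes.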
